A study of Mus musculus with 11 samples.

Results

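Autophagy delivers cytoplasmic material to lysosomes inside a double membrane, and 10 of its genes were followed here through the 4 groups of a study of methionine and MYC in a mouse liver cancer line. The genes are the cargo receptors Sqstm1 and Nbr1, the 5 members of the ATG8 family (Map1lc3a, Map1lc3b, Gabarap, Gabarapl1 and Gabarapl2), and Ulk1, Becn1 and Wipi1, which act when the membrane forms. They were listed by name, with earlier results of these data known. All 10 were found among 55416 gene identifiers, and all 10 were among the 12909 genes tested, those whose normalized counts averaged 10 or more. EC4 is a mouse liver tumour line with switchable MYC. Its cells, labelled MYC on (here MYC high) or MYC off (here MYC low), spent 24 h in DMEM with 200 µM methionine, the level of their growth medium, or with 10 µM. Of MYC high cells at 200 µM there are 2 libraries (replicates 2 and 3; replicate 1 was not analysed here), with 3 each of MYC low cells at 200 µM, MYC high cells at 10 µM and MYC low cells at 10 µM. All groups come from this 1 line, and the agent that sets the MYC state and the time since the switch were not given in the sources used here. The labels do not say that replicates were separate cultures, so p-values measure only how these libraries spread, and that may be technical. Values with ± are means with the SD over the libraries of a group, n = 2 for MYC high cells at 200 µM and n = 3 for every other group.

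In autophagy the ULK1 kinase responds to nutrient signals, and BECN1, a subunit of a lipid kinase complex, helps to make the phosphatidylinositol 3-phosphate that WIPI proteins bind on the growing membrane. ATG8 proteins are small and ubiquitin-like, are joined to a membrane lipid, and fall into an LC3 branch (Map1lc3a, Map1lc3b) and a GABARAP branch (Gabarap, Gabarapl1, Gabarapl2). SQSTM1, also called p62, and NBR1 bind both ubiquitin-marked cargo and ATG8 proteins and are themselves consumed with the cargo. Transcript levels therefore give neither the amount of these proteins nor the rate of autophagy, and the values here are of transcripts only. In liver, p62 is also known for its part in stress signalling and tumour growth.

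Libraries held 10858936 to 13085689 reads on genes, a depth at which every member had at least 191 reads in every library. For mouse Myc itself the normalized counts at 200 µM were 2089 ± 106 with MYC high and 1136 ± 31.3 with MYC low, but 336 ± 39.2 and 336 ± 13.5 at 10 µM. It therefore does not separate the libraries labelled MYC high and MYC low at 10 µM. Whether these reads include the transcript of the switchable MYC was not given in the sources used here. Every direction between the MYC states, at 200 µM as at 10 µM, thus rests on the labels. Of 7 fetal liver and biliary markers 5 were tested (Afp, Krt8, Krt18, Krt19 and Sox9), while Epcam and Gpc3 had 0 reads throughout. This list summed to 10181 to 10635 (MYC high) and 13933 to 14437 (MYC low) normalized counts per library at 200 µM. At 10 µM the sums were 23868 to 25500 and 31964 to 32719. The 5 hepatocyte markers summed to at most 1.9 normalized counts in a library, with Alb and Cyp3a11 at 0 reads throughout. The highest sums of the endothelial and fibroblast lists were 4.07 and 25.3. Of 5 macrophage markers, Ptprc had 0 reads, Adgre1 had 1 read in all libraries together and Lyz2 had 6, while Cd68 and Csf1r were tested, and the list summed to 263 to 286 (MYC high) and 482 to 533 (MYC low) at 200 µM and to 873 to 906 and 931 to 974 at 10 µM. Mitochondrial transcripts took 0.854% ± 0.0216 and 0.845% ± 0.0624 of reads with MYC high at 200 and 10 µM, against 1.71% ± 0.0363 and 1.54% ± 0.0319 with MYC low. The part of the fetal liver and biliary markers, Cd68, Csf1r or the mitochondrial share in the members' differences was not tested. In bulk libraries fewer cells of a type and less RNA per cell cannot be told apart.

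Promoter sequence was available for 8 members (9 windows, since Nbr1 has 2 start sites in the table), and Map1lc3a and Becn1 were not among them. The 4 windows printed belong to Sqstm1 and Gabarapl1, which fell at 10 µM in both MYC states, and to Ulk1 and Wipi1, which were lower in MYC high cells in both media. Each is the 250 bases before the RefSeq start on the build GRCm38.p6, 5′ to 3′ along the gene's own strand, at chr11:50210821-50211070 (minus strand), chr6:129532942-129533191 (plus), chr5:110810082-110810331 (minus) and chr11:109611390-109611639 (minus), and capitals mark GC boxes, the letters GGGCGG on either strand.
Sqstm1: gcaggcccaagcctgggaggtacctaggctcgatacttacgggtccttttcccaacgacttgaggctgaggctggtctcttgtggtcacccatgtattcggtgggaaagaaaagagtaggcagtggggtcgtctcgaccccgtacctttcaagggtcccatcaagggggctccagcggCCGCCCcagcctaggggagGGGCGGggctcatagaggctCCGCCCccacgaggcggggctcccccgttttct
Gabarapl1: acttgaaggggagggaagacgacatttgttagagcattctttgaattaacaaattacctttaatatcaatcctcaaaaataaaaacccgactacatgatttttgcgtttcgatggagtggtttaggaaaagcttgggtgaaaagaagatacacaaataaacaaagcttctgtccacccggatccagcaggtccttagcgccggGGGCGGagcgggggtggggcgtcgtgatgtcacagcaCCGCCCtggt
Ulk1: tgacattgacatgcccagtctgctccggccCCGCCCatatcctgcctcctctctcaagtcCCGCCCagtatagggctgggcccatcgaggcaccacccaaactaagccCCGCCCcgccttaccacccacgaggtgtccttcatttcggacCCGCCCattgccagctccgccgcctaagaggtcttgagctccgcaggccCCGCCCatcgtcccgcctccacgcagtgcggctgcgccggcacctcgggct
Wipi1: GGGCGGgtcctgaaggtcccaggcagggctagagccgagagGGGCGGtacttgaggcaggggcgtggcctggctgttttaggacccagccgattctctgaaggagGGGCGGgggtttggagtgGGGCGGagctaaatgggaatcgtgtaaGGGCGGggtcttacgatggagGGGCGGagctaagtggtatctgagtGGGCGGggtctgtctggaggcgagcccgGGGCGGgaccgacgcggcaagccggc
The Wipi1 window held 8 GC boxes, all on its own strand, with 18 to 64 bases from the start of one to the next, and only 0.155% of 32817 promoter windows of this length held as many. That of Ulk1 held 5, all on the opposite strand at steps of 30 to 49 bases, a number reached by 1.932% of windows. Sqstm1 had 3 (reached by 8.468% of windows) and Gabarapl1 had 2 (16.72%). The Gabarap window, not printed, held no GC box. Gabarap too fell at 10 µM in both MYC states and was lower in MYC high cells in both media. At least 1 GC box lay in 6 of the 9 member windows and in 32.721% of all windows. The Wipi1 and Ulk1 windows were each 67.2% G and C, that of Sqstm1 63.2% and that of Gabarapl1 46.8%. The median of all windows was 52.4%, and these shares of windows were not adjusted for base content. GC boxes are the letters that SP-family factors are known to bind.

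A further 5 motifs, searched on both strands, had no match in any of the 9 member windows. These were the E-box CACGTG, known as a site of MYC with MAX and of TFEB, which 6.021% of all windows hold, and the longer CLEAR element (0.241%), which contains the E-box. The others were the NRF2 element TGACNNNGC (10.156%), the amino acid response element TGATGCAA of ATF4 (0.792%) and the CRE TGACGTCA (1.548%). The CCAAT letters lay in 2 of the 9 windows, both of Nbr1, and in 33.833% of all. No match says only that these letters are not within 250 bases before these starts.

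Sqstm1 was by far the most abundant member. Counts of different genes compare only per length, so normalized counts were divided by the kilobases of exon in the annotation. On this per-length level, Sqstm1 stood at 16278 ± 187 in MYC high cells at 200 µM, the 8th highest of 12857 tested genes with a length, and at 3078 ± 131 in MYC high cells at 10 µM, where it was 168th. In MYC low cells it ranked 16th at 200 µM and 61st at 10 µM. Its transcript took 0.439% ± 0.00363 of all reads on genes in MYC high cells at 200 µM, 0.31% ± 0.0045 in MYC low cells at 200 µM, 0.13% ± 0.000798 with MYC low at 10 µM and 0.0858% ± 0.00313 in MYC high cells at 10 µM. Gabarap was second, with per-length levels of 2726 ± 70.4 with MYC low at 200 µM and 1264 ± 19.6 in MYC high cells at 10 µM.

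The mean per-length level over the 11 libraries was 403 for Map1lc3a, 322 for Nbr1, 321 for Gabarapl2 and 291 for Gabarapl1. It was 212 for Map1lc3b, 176 for Becn1, 130.3 for Wipi1 and 109 for Ulk1, the scarcest. With the longest transcript as the length, 5 of the 10 members kept their place in this order, Sqstm1 and Gabarap among them, and Map1lc3b had 384. The order of the members in between thus depends on the length used.

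Across the comparisons, the members' counts are read against a high background, since most tested genes passed the threshold of 0.05 on limma's adjusted p. At 10 against 200 µM, 7 of 10 members fell and 2 rose in MYC high cells (median log2 −0.69), where 75.8% of the 12909 tested genes passed, 37.9% lower and 37.9% higher. In MYC low cells 4 fell and 0 rose (0 also at an unadjusted p under 0.05, with edgeR and with DESeq2; median −0.11), against 59.4% of all genes, 29.9% lower and 29.4% higher; the 4 were Sqstm1, Map1lc3a, Gabarap and Gabarapl1. At 200 µM, 3 members were higher and 5 lower in MYC high cells (median −0.09; 74.4% of all genes, 36.8% higher and 37.6% lower). At 10 µM 9 were lower and 1 higher (median −0.56; 71.5% of all genes, 35.8% lower and 35.7% higher). The interaction passed for 8 members, negative for 6 and positive for 2 (median −0.50; 60.4% of all genes, 29.4% negative and 31% positive). The median of all tested genes lay between −0.00391 and 0.0105 in every comparison. Comparisons that use the same libraries are not independent of each other.

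**Figure D1:**
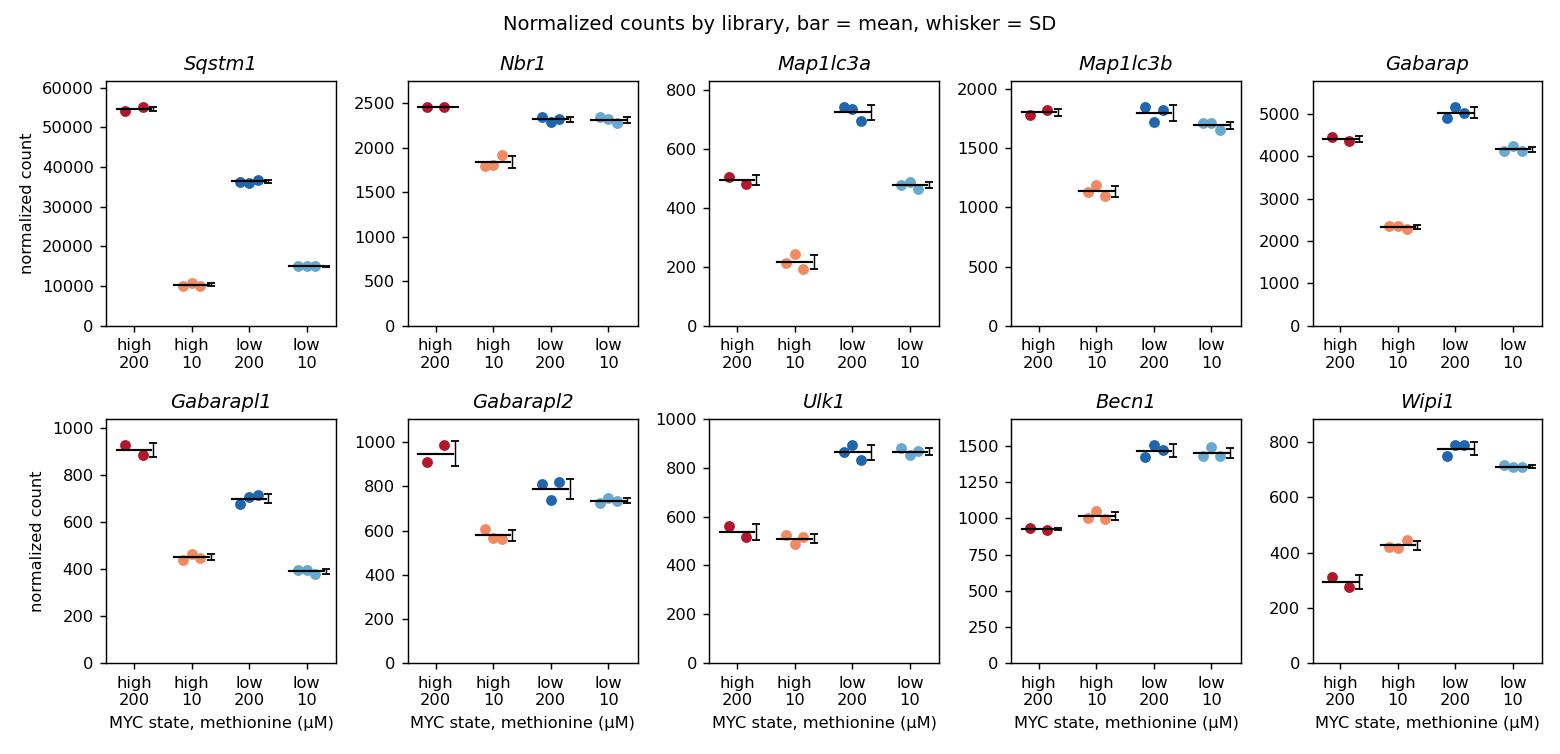
Normalized count (y axis, from 0, own scale per gene) of the 10 members in each library, by MYC state and methionine in µM, with the group mean as a bar and the SD as a whisker (n = 2 for MYC high at 200 µM, n = 3 elsewhere). Sqstm1 runs from 55074 at most in MYC high cells at 200 µM down to 10031 in MYC high cells at 10 µM, while Ulk1, Becn1 and Wipi1 lie lower in both MYC high groups than in both MYC low groups.

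The receptor Sqstm1 fell strongly when methionine was scarce, and its order between the MYC states turned over with the medium. Its normalized counts were 54187 and 55074 in MYC high and 36206, 36013 and 36849.6 with MYC low at 200 µM, and at 10 µM they were 10119.8, 10834 and 10031 with MYC high against 15131, 14947 and 14948 with MYC low. No library of one group reached into another: MYC high cells had the most Sqstm1 at 200 µM and the least at 10 µM. The fall from 200 to 10 µM was 5.29-fold in MYC high cells (log2 −2.40, SE 0.031, limma adjusted p = 1.56e-38) and 2.42-fold in MYC low cells (log2 −1.28, SE 0.027, limma adjusted p = 7.00e-31). Changes at least as large in size made up 2.8% and 2.77% of all tested genes. The fall was larger in MYC high cells, with an interaction (the log2 difference at 10 against 200 µM with MYC high minus that with MYC low) of −1.13 (95% interval −1.21 to −1.04, limma adjusted p = 2.59e-23). MYC high cells stood above MYC low cells at 200 µM (log2 0.59, adjusted p = 2.52e-19, limma) and below them at 10 µM (log2 −0.54, adjusted p = 1.12e-19, limma). Exons of Sqstm1 and Mrnip overlap on opposite strands by 580 bases in the annotation, and Mrnip averaged 72.9 normalized counts.

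Nbr1, the receptor related to p62, had a smaller fall, seen in MYC high cells. Its normalized counts were 2456 and 2456 with MYC high and 2352, 2295 and 2325 in MYC low cells at 200 µM, 2346, 2326 and 2277 with MYC low at 10 µM and 1794, 1808 and 1915 in MYC high cells at 10 µM. The MYC high libraries lay above all others at 200 µM and below all others at 10 µM, and the MYC low groups overlapped. Nbr1 fell 1.34-fold in MYC high cells (log2 −0.42, SE 0.040, limma adjusted p = 5.73e-12), and its difference in MYC low cells was 0.00 (95% interval −0.08 to 0.07, adjusted p = 0.917). The interaction was −0.41 (limma adjusted p = 2.01e-08). The MYC difference was 0.08 at 200 µM (limma adjusted p = 0.0671, and 0.0495 without replicate 3 of MYC high cells at 10 µM) and −0.33 at 10 µM (limma adjusted p = 1.26e-10).

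Both LC3 genes fell in MYC high cells at 10 µM, and Map1lc3a also followed the MYC state. Map1lc3a had 506 and 483 normalized counts in MYC high and 742, 737 and 695 with MYC low at 200 µM, and at 10 µM 213, 243 and 193 with MYC high against 477, 487 and 466 with MYC low. MYC low libraries exceeded MYC high libraries in each medium, whereas MYC high cells at 200 µM and MYC low cells at 10 µM overlapped. Map1lc3a fell 2.29-fold in MYC high (log2 −1.19, SE 0.077, limma adjusted p = 1.53e-16) and 1.52-fold in MYC low cells (log2 −0.60, SE 0.069, limma adjusted p = 1.48e-09). It was lower in MYC high cells at 200 µM (log2 −0.55, adjusted p = 6.40e-08, limma) and at 10 µM (−1.14, adjusted p = 2.49e-17, limma), and its interaction was −0.59 (adjusted p = 6.85e-06, limma).

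Map1lc3b, the LC3 gene most used as an autophagosome marker, was lowest in MYC high cells at 10 µM. It had 1780.1 and 1827 normalized counts with MYC high and 1848, 1725 and 1827 in MYC low cells at 200 µM, 1712, 1711 and 1658 with MYC low at 10 µM and 1129.7, 1189 and 1095 in MYC high cells at 10 µM. At 200 µM the libraries of the MYC states overlapped (log2 0.00, 95% interval −0.09 to 0.09, limma adjusted p = 0.953). The fall in MYC high cells was 1.59-fold (log2 −0.66, SE 0.045, limma adjusted p = 6.09e-16), beside a difference of −0.09 in MYC low cells (adjusted p = 0.0609) and an interaction of −0.58 (adjusted p = 2.14e-10). At 10 µM it was lower with MYC high (log2 −0.57, limma adjusted p = 1.99e-15). In MYC low cells that difference passed the threshold with edgeR (adjusted p = 0.0401), without replicate 2 of MYC low cells at 200 µM (0.026, limma) and without replicate 2 (0.0415) or 3 (0.0478) of MYC high cells at 10 µM. Exons of Map1lc3b and Zcchc14 overlap on opposite strands by 58 bases, and Zcchc14 averaged 1037 normalized counts.

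Gabarap, the main transcript of its branch, had 4901, 5161 and 5016 normalized counts in MYC low and 4460.4 and 4366 in MYC high cells at 200 µM, 4126, 4238 and 4129.6 in MYC low and 2346, 2357 and 2289 in MYC high cells at 10 µM. The 4 groups did not overlap, with the widest gap above MYC high cells at 10 µM. Gabarap fell 1.89-fold in MYC high (log2 −0.92, SE 0.035, limma adjusted p = 1.40e-23) and 1.21-fold in MYC low cells (log2 −0.27, SE 0.031, limma adjusted p = 1.85e-09). MYC high cells had less of it at 200 µM (log2 −0.19, adjusted p = 1.13e-05, limma) and at 10 µM (−0.84, adjusted p = 8.12e-24, limma), with an interaction of −0.65 (adjusted p = 1.55e-14, limma).

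Gabarapl1, a GABARAP paralog known as a target of FOXO factors, fell in both MYC states. Its normalized counts were 928 and 885 in MYC high and 677, 708 and 713 with MYC low at 200 µM, and at 10 µM 440.1, 466 and 448 with MYC high against 398, 397 and 378 with MYC low. Both groups at 200 µM lay above both groups at 10 µM, and MYC high libraries lay above MYC low libraries in each medium. The fall was 2.01-fold in MYC high (log2 −1.005, SE 0.062, limma adjusted p = 4.21e-17) and 1.79-fold in MYC low cells (log2 −0.84, SE 0.056, limma adjusted p = 1.02e-15). The difference between these responses was −0.17 (95% interval −0.34 to 0.00, limma adjusted p = 0.0834). MYC high cells were higher by 0.37 at 200 µM and 0.21 at 10 µM (adjusted p = 1.67e-06 and 0.00127, limma), the single member that stood higher in MYC high cells at 10 µM. Its exons overlap those of 1700101I11Rik on the opposite strand by 570 bases, and that gene averaged 163 normalized counts.

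Gabarapl2, the other GABARAP paralog, had 909 and 988 normalized counts with MYC high and 811, 737 and 818 in MYC low cells at 200 µM, while at 10 µM it had 608, 568 and 561 with MYC high against 724, 748 and 733 with MYC low. Like Sqstm1, it was highest and lowest in the 2 MYC high groups, and the MYC low groups overlapped. It fell 1.64-fold in MYC high cells (log2 −0.71, SE 0.059, limma adjusted p = 2.15e-13). In MYC low cells the difference was −0.10 (limma adjusted p = 0.104, and 0.029 without replicate 2 of MYC low cells at 200 µM). MYC high cells were higher at 200 µM (log2 0.27, adjusted p = 1.36e-04, limma) and lower at 10 µM (−0.34, adjusted p = 4.56e-07, limma), and the interaction was −0.61 (adjusted p = 2.88e-08, limma).

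**Figure D2:**
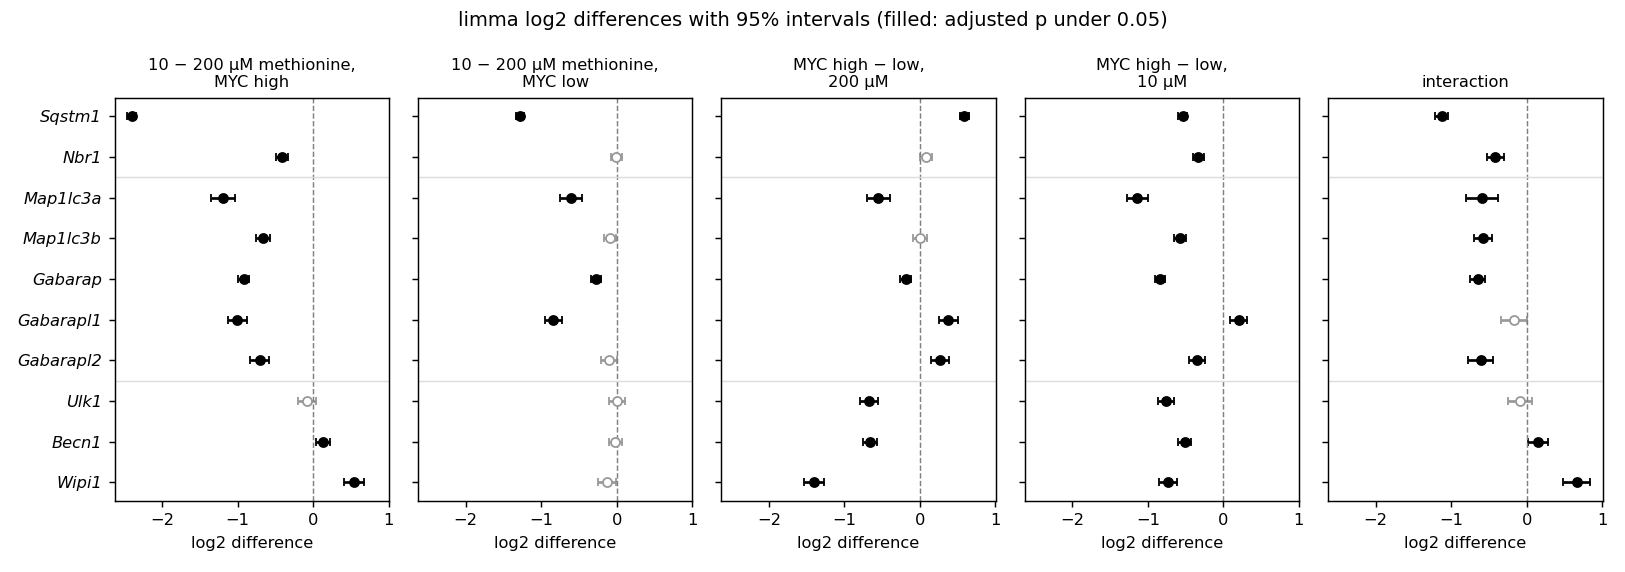
limma log2 differences (x axis) of the 10 members (y axis) with 95% intervals in the 5 comparisons, on 1 common scale, with filled points for an adjusted p under 0.05. Receptors and ATG8 genes lie left of 0 in MYC high cells at 10 against 200 µM, down to −2.40 for Sqstm1, while Ulk1, Becn1 and Wipi1 lie left of 0 in both comparisons of MYC states.

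The ATG8 transcripts together formed a smaller pool in MYC high cells at 10 µM than in the other groups. Their summed per-length level was 4265 ± 52.2 in MYC low cells at 200 µM, 3909.9 ± 37.3 in MYC high cells at 200 µM, 3397 ± 52.3 in MYC low and 2072 ± 52.5 in MYC high cells at 10 µM. Gabarap made up the largest share in all groups, from 61.0% ± 0.644 in MYC high to 66.5% ± 0.238 in MYC low cells at 10 µM. The share of Map1lc3a was 14.4% ± 0.541 in MYC low and 10.7% ± 0.257 in MYC high cells at 200 µM, and 11.9% ± 0.117 and 8.83% ± 0.81 at 10 µM. That of Gabarapl1 ran the other way between the MYC states, at 8.14% ± 0.176 in MYC low and 11.5% ± 0.276 in MYC high cells at 200 µM and 5.72% ± 0.126 and 10.8% ± 0.286 at 10 µM. With the longest transcript as the length, Gabarapl1 still had 4.7% in MYC low and 8.89% in MYC high cells at 10 µM. The shares of Map1lc3a were smaller with that length, at 11.5% in MYC low and 8.53% in MYC high cells at 200 µM. At 10 µM they were 9.37% and 6.97%. These shares describe the transcript pool and were not tested.

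**Figure D3:**
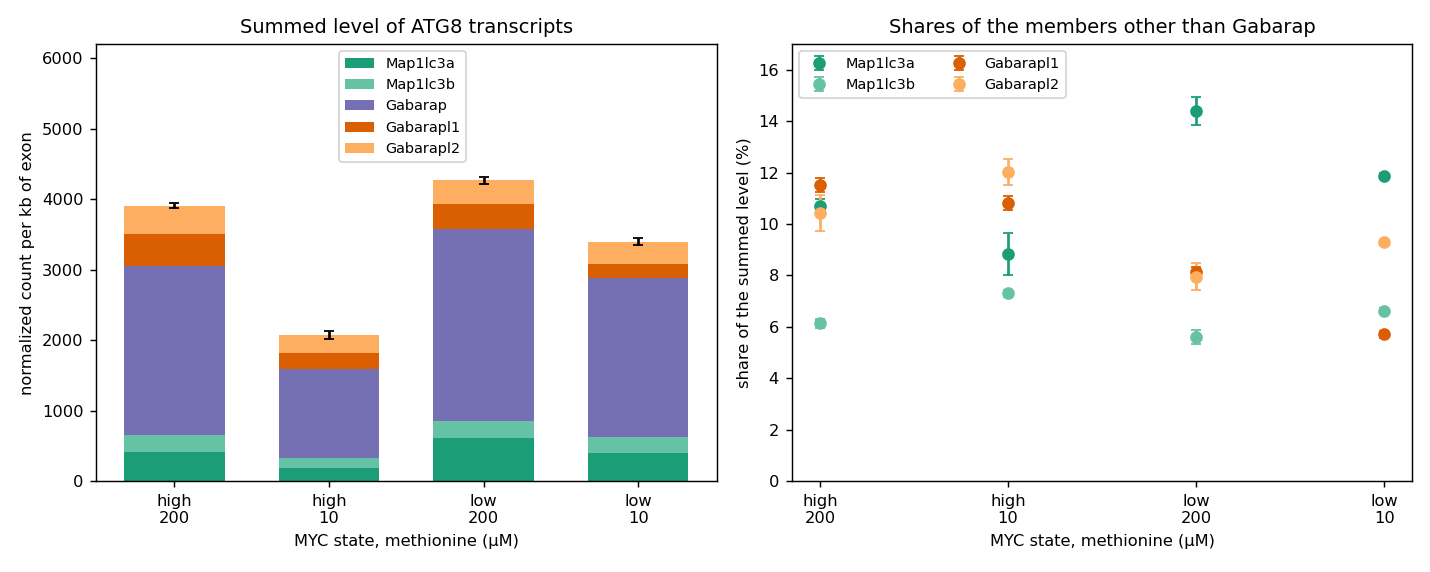
Left, summed per-length level of the 5 ATG8 transcripts by group (stacked means from 0, whisker = SD of the sum); right, the share of each member other than Gabarap in that sum (mean and SD, %). The pool is lowest in MYC high cells at 10 µM, at 2072, and Gabarapl1 has its lowest share in MYC low cells at 10 µM.

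All 3 initiation genes were lower in MYC high cells in both media, and none of them fell at 10 µM by limma's test. Ulk1, the kinase that starts the process, had 562 and 516 normalized counts in MYC high and 863, 893 and 833 with MYC low at 200 µM, and at 10 µM 526, 488 and 516 with MYC high against 880.4, 851 and 867 with MYC low. Its libraries split by MYC state alone, and the media overlapped within each state. Ulk1 was lower in MYC high cells 1.60-fold at 200 µM (log2 −0.68, SE 0.059, limma adjusted p = 6.15e-13) and 1.70-fold at 10 µM (log2 −0.76, SE 0.053, limma adjusted p = 1.14e-15). The methionine difference was −0.08 in MYC high (95% interval −0.20 to 0.04, adjusted p = 0.226) and 0.01 in MYC low cells (−0.10 to 0.11, adjusted p = 0.938, limma).

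Becn1, the scaffold of the lipid kinase complex, had 933 and 921 normalized counts in MYC high and 1423, 1507 and 1473 with MYC low at 200 µM, and at 10 µM 1003, 1049 and 997 with MYC high against 1434, 1492 and 1428 with MYC low. MYC low libraries were all above MYC high libraries, and the MYC low groups overlapped. Becn1 was lower in MYC high cells 1.58-fold at 200 µM (log2 −0.66, SE 0.047, limma adjusted p = 2.17e-15) and 1.43-fold at 10 µM (log2 −0.51, SE 0.042, limma adjusted p = 1.32e-13). It rose slightly at 10 µM in MYC high cells (0.13, adjusted p = 0.011, limma), a call lost without replicate 3 of MYC high cells at 200 µM (0.12, adjusted p = 0.0622). The interaction of 0.15 (limma adjusted p = 0.0401) was lost with DESeq2 (0.102) and without a filter on low values (0.0631). It was also lost in 7 of 11 fits that left out 1 library: replicate 2 or 3 of MYC high cells at 200 µM (adjusted p = 0.0604 and 0.101), replicate 2 or 3 of MYC low cells at 200 µM (0.0989 and 0.0647), replicate 2 of MYC high cells at 10 µM (0.0833) and replicate 1 or 3 of MYC low cells at 10 µM (0.079 and 0.0859). Exons of Becn1 overlap those of Cntd1 on the opposite strand by 3104 bases, and Cntd1 averaged 522 normalized counts, so its counts are uncertain where reads could be assigned to either gene.

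Wipi1, which binds phosphatidylinositol 3-phosphate, had the largest MYC difference among the 10 members at 200 µM. Its normalized counts were 312 and 276 in MYC high and 748, 788 and 789 with MYC low at 200 µM, and at 10 µM 419, 415 and 444 with MYC high against 715, 709 and 707 with MYC low. The 4 groups did not overlap, with MYC high cells at 200 µM lowest. Wipi1 was 2.64-fold lower in MYC high cells at 200 µM (log2 −1.40, SE 0.065, limma adjusted p = 9.64e-21) and 1.67-fold lower at 10 µM (log2 −0.74, SE 0.058, limma adjusted p = 6.15e-14). At 10 µM it rose in MYC high cells 1.45-fold (log2 0.54, limma adjusted p = 2.74e-09), against a difference of −0.12 in MYC low cells (adjusted p = 0.0648), and the interaction was 0.66 (limma adjusted p = 3.90e-08). The difference in MYC low cells passed the threshold with edgeR (adjusted p = 0.0328) and without replicate 2 (0.0483) or replicate 3 (0.0471) of MYC high cells at 200 µM.

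Over the 11 libraries, which share 4 groups, the members formed blocks by Pearson correlation of log2 values, given as a description. Map1lc3a, Map1lc3b and Gabarap varied together (r = 0.95, 0.98 and 0.98). Nbr1 was close to them (r = 0.87, 0.96 and 0.93) and to Gabarapl2 (0.90). Ulk1, Becn1 and Wipi1 also varied together (r = 0.96, 0.91 and 0.97). Sqstm1 was closest to Gabarapl1 (0.92) and Gabarapl2 (0.90), and had values of 0.17, 0.00 and −0.13 with Ulk1, Becn1 and Wipi1. Gabarapl1 and Wipi1 were the pair that diverged most (−0.36). Among 9723 tested genes with a mean of at least 100, the 2 most like Sqstm1 were Edf1 (r = 0.997) and Tmem209 (0.997), and those most like Gabarapl1 were Tpt1 (0.998) and Atf5 (0.997). For Map1lc3a they were Lamp1 (0.994), which encodes a lysosomal membrane protein, and Htra1 (0.994). For Nbr1, Map1lc3b, Gabarap, Gabarapl2, Ulk1 and Becn1 the best values ran from 0.985 (Gabarapl2 with Ip6k1) to 0.996 (Gabarap with Baz2b).

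The rest of the pathway moved in both directions. Of 59 other autophagy genes in 6 lists, all 59 of which were tested, 27 fell and 19 rose in MYC high cells at 10 µM (median log2 −0.05; 37.9% and 37.9% of all tested genes), and 23 fell and 17 rose in MYC low cells (−0.09; 29.9% and 29.4% of all). In MYC high cells 36 were lower and 12 higher at 200 µM (−0.22; 37.6% and 36.8% of all), and 34 and 10 at 10 µM (−0.22; 35.8% and 35.7% of all). The interaction passed for 18 with a negative and 19 with a positive sign (0.03; 29.4% and 31% of all). Nothing particular to these lists is read from the counts.

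The paralog Ulk2 and the protease gene Atg4a rose at 10 µM in both MYC states. Ulk2, the paralog of Ulk1, had 267 and 272 normalized counts in MYC high cells at 200 µM and 913, 935 and 949.7 at 10 µM (log2 1.79, SE 0.055, limma adjusted p = 1.67e-26), and 876, 930.2 and 847 against 1087, 1106 and 1106 in MYC low cells (log2 0.32, adjusted p = 8.38e-07). MYC high cells at 200 µM were thus lowest in Ulk2, while Ulk1 was low in both MYC high groups. In the ULK1 complex list 1 rose and 2 fell of 4 in MYC high cells (all tested genes: 37.9% and 37.9%), Atg101 (−0.68) and Atg13 (−0.25) being those that fell. Atg4a, a protease that trims ATG8 proteins, went from 160.0 and 173 to 866, 817 and 791 in MYC high cells (log2 2.30, SE 0.066, limma adjusted p = 1.83e-27) and from 565, 514 and 570.0 to 1003, 1083 and 978 in MYC low cells (log2 0.89, adjusted p = 8.72e-16). Of the ATG8 conjugation genes 3 rose and 5 fell of 11 in MYC high cells (median −0.05), near the 75.8% of all tested genes called there, with Atg12, the ubiquitin-like partner of ATG5, at −1.08 and Atg16l2 at −1.19. Atg7, the activating enzyme, was lower in MYC high cells at both 200 (−0.83) and 10 µM (−0.87).

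Partners of Becn1 in the lipid kinase complexes were divided. Atg14, which directs the complex to autophagy, had 368 and 320.4 normalized counts in MYC high cells at 200 µM and 94.7, 105 and 94.2 at 10 µM (log2 −1.80, SE 0.128, limma adjusted p = 2.36e-15), while MYC low cells had 171, 254 and 200.3 and 134, 128 and 136. Uvrag, an alternative partner, fell by 1.002 with MYC high and 0.50 in MYC low cells on the log2 scale, and Pik3r4 rose in MYC high cells (0.40). In this list 2 rose and 3 fell of 7 in MYC high cells, where 75.8% of all tested genes were called. Of the genes for phosphatidylinositol 3-phosphate binding and lipid transfer 3 rose and 6 fell of 9 in the same comparison, with the scramblase gene Atg9a at 0.94, Atg2a at 0.49 and Atg2b at −0.57. The Wipi1 relative Wipi2 had a MYC difference at 200 µM of 0.05 (95% interval −0.06 to 0.16), and fell at 10 µM in both MYC states (−0.33 with MYC high, −0.40 with MYC low).

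Among the other receptors, some of those on mitochondria rose where Sqstm1 and Nbr1 fell. Bnip3, a mitophagy receptor, had 273 and 261 normalized counts in MYC high cells at 200 µM and 7092, 7423 and 7075 at 10 µM (log2 4.75, SE 0.057, limma adjusted p = 2.13e-39), whereas MYC low cells had 318, 338 and 322 and 503, 460.1 and 448 (log2 0.53, adjusted p = 2.19e-11). All MYC high libraries at 10 µM lay far above the rest. Its relative Bnip3l (1.19) and Fkbp8 (0.75), both also mitochondrial receptors, rose in MYC high cells, and Phb2 was higher in MYC high cells at 200 µM (0.61) and 10 µM (0.83). In MYC low cells the normalized counts of Bnip3l went down, from 1175 ± 23.5 at 200 µM to 1031 ± 44.0 at 10 µM. Those of Fkbp8 went up, from 1991 ± 92.1 to 2427 ± 78.2. In all 5 rose and 7 fell of 14 in MYC high cells (median −0.19; 37.9% and 37.9% of all tested genes). Ncoa4, which carries ferritin to lysosomes, fell in MYC high cells (−0.64) but rose slightly with MYC low (0.16, interaction −0.80), and Calcoco1 fell in both (−0.73 and −0.72). Of the fusion genes 5 rose and 4 fell of 14 in MYC high cells (again against 37.9% and 37.9% of all), led by Tecpr1 (1.36) and Vps41 (1.21) upward and the SNARE gene Ykt6 (−0.92) downward. Fusion genes were lower in MYC high cells in 9 of 14 at 200 µM (37.6% of all tested genes) and 12 of 14 at 10 µM (35.8% of all), with Tecpr1 at −2.45 and −1.27.

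**Figure D4:**
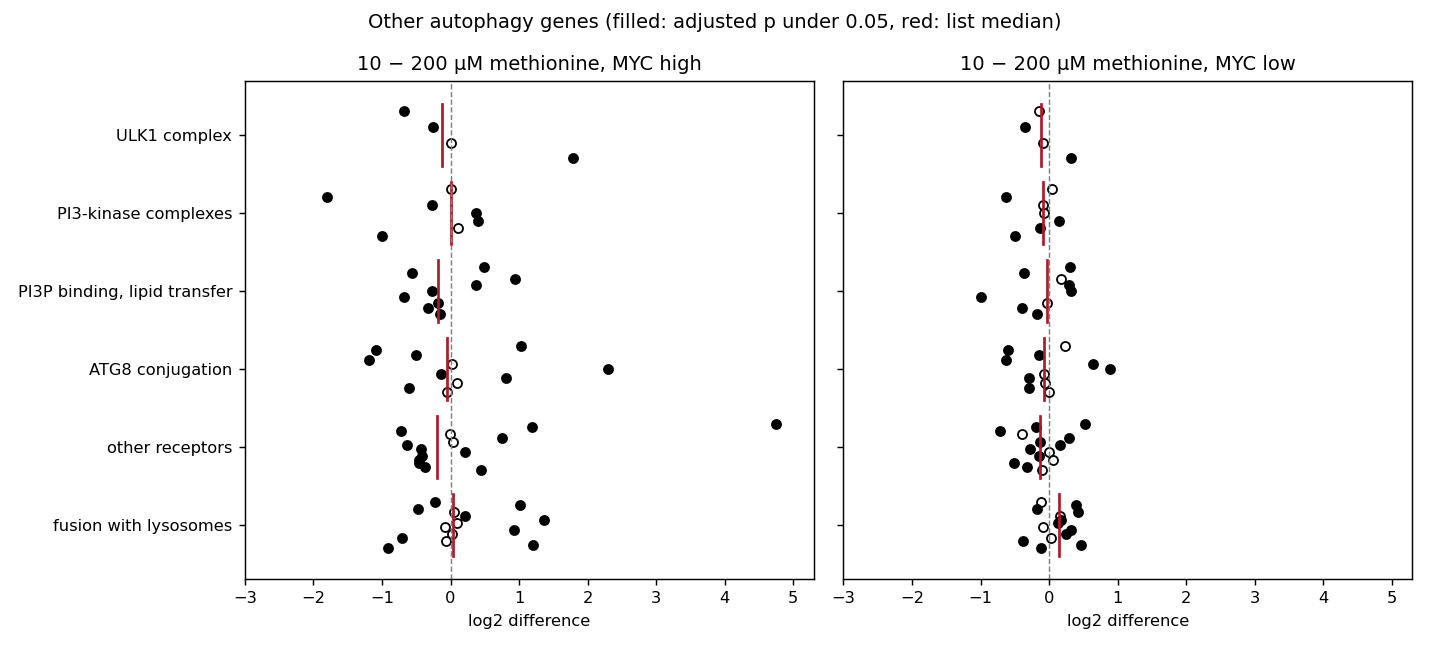
limma log2 differences at 10 against 200 µM methionine (x axis) of 59 other autophagy genes in 6 lists (y axis, 1 point per gene, filled for an adjusted p under 0.05, red bar for the list median) in MYC high (left) and MYC low cells (right). Points lie on both sides of 0 in every list, and the point farthest right in MYC high cells is Bnip3 at 4.75.

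Transcripts of factors known to act on these genes moved in different directions. Of 10 listed, 9 were tested and Mitf was below the filter. At 10 µM 6 fell and 3 rose in MYC high cells, where 75.8% of all tested genes were called, and 5 fell and 3 rose in MYC low cells (59.4% of all). Tfeb, the lysosome and autophagy factor, rose in both states from 222 and 222 to 364, 359.5 and 362 in MYC high (log2 0.70, SE 0.087) and from 213, 188 and 182 to 334, 338 and 339.5 in MYC low cells (0.79, SE 0.078; limma adjusted p = 4.15e-09 and 3.87e-11). For Tfe3 the differences were 0.12 with MYC high (adjusted p = 0.038) and −0.07 with MYC low (adjusted p = 0.246, limma).

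Besides Myc, 4 of the listed factors fell at 10 µM in both MYC states. Atf4, a factor of the amino acid stress response, went from 5561 and 5714 to 2944, 2970.2 and 2697 in MYC high (log2 −0.97) and from 3529.5, 3505 and 3440.5 to 2025, 2030.3 and 1959 in MYC low cells (−0.80), and Ddit3, which acts downstream of it, fell by 1.83 and 1.16 on the log2 scale. Foxo3 fell by 1.04 with MYC high and 0.45 with MYC low, and Foxo1 by 0.83 and 0.36. Each of these 8 changes passed limma's threshold, with adjusted p of at most 6.60e-07. Nfe2l2, which encodes NRF2, a factor that acts on Sqstm1, went from 2877 and 2884 down to 2194, 2110.4 and 2219 in MYC high cells (log2 −0.41, limma adjusted p = 1.61e-12) and from 2979.6, 3011 and 3069 up to 3670.0, 3707 and 3631 in MYC low cells (0.28, adjusted p = 2.08e-09). Sqstm1 fell in both. Keap1, also on the list, went from 575 ± 9.57 at 200 µM to 922 ± 71.1 at 10 µM with MYC high. With MYC low it went from 617 ± 49.1 to 886 ± 33.5. The part of these factors in the members' changes was not tested.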

How the data were processed

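The authors deposited 1 signal value per gene and library, named normalized counts per the labels. Per the submitters' processing notes the tools were DESeq2, HTSeq, STAR, SAMtools, fastp and FastQC and the build GRCm39; versions, annotation release and strand setting were not given in the sources used here. Values were whole multiples of 1 step per library (100% within 0.001), so reads were recovered. Columns of other samples numbered 0. Ddit3 matched 2 identifiers, and that with the higher mean was used. Symbols (52083 of 55416 identifiers) and exon lengths came from GENCODE M21, promoters from RefSeq on GRCm38.p6; both belong to an earlier build, so the only coordinates given are those of promoters on GRCm38.p6. A search for near-identical transcripts of other genes returned no match, not even Cntd1, whose exons overlap those of Becn1. It therefore cannot tell whether such copies exist.

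log2(value + 1) of the deposited signal, a scale that understates changes of low genes, was fitted with limma 3.58.1 (R 4.3.3), 1 mean per group and a trend, with Benjamini-Hochberg adjustment over 12909 genes; a call is an adjusted p under 0.05, and all adjusted p are limma's unless another tool is named. For the interaction, the difference at 10 against 200 µM with MYC low was subtracted from that with MYC high. All groups share 1 estimate of the spread, so the group of 2 libraries is taken to vary like the others. Alternatives were edgeR 4.0.16 and DESeq2 1.42.0 on recovered reads, other scalings, pseudocounts and filters, a replicate block and leaving out each library. The fit was also run on simulated data with few changed genes and 1 fixed spread. These settings differ from the data, so nothing is drawn from that run. Replicates differed by more than sampling noise (chi-square per gene 1.40 to 2.68). Genes named are the members, Myc, the listed factors, for each other list and comparison up to 3 members with the smallest adjusted p, and for each member the 2 genes most like it with a mean of at least 100; for Wipi1 the latter are not reported here. Members and lists were chosen with earlier results of these data known.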

Additional observations from a re-analysis of the deposited data

Results flagged for a closer look

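The methionine response differed between the MYC states for 8 of the 10 members, by limma's interaction term at an adjusted p under 0.05. The response of MYC high cells was the more negative for Sqstm1 (log2 −1.13), Gabarap (−0.65), Gabarapl2 (−0.61), Map1lc3a (−0.59), Map1lc3b (−0.58) and Nbr1 (−0.41). It was the more positive for Wipi1 (0.66) and Becn1 (0.15). The call for Becn1 was lost in 7 of 11 fits that left out 1 library (adjusted p up to 0.101), with DESeq2 (adjusted p = 0.102) and without the filter on low values (0.0631). Of all tested genes 60.4% passed the same test. The range over fits that left out 1 library was −1.16 to −1.11 for Sqstm1, 0.57 to 0.75 for Wipi1 and 0.13 to 0.17 for Becn1.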

How the results depend on the processing

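Each of the 50 member results (10 members in 5 comparisons) was recomputed under 20 other settings. Of 39 calls, 37 kept their direction and their call under every setting run, and those of Becn1 in MYC high cells and in the interaction were the 2 exceptions. The count of members called stayed within 1.5 times everywhere. Leaving out 1 library, it was 8 to 9 for methionine in MYC high cells, 4 to 6 in MYC low cells, 8 to 9 for MYC at 200 µM, 10 in every such fit at 10 µM and 7 to 8 for the interaction. Same-numbered replicates did not deviate together (correlations −0.05 to 0.03 over 15 pairs of libraries). With 2 or 3 libraries per group this cannot exclude that equal numbers mark shared handling. With a replicate block the counts were 9, 4, 8, 10 and 8 in the same order. Differences that changed sign were uncalled in the report. Map1lc3b at 200 µM was −0.0088 with edgeR, −0.0081 with TMM scaling and −0.083 with scaling by total reads, and −0.027 to 0.022 without 1 library. With scaling by total reads Nbr1 was −0.0062 for MYC at 200 µM and 0.014 for methionine in MYC low cells, and Becn1 0.0029. Without 1 library, Nbr1 in MYC low cells ran from −0.014 to 0.0076, Becn1 from −0.038 to 0.0034 and Ulk1 from −0.020 to 0.030. The cause was not tested. With the longest transcript as the length, 5 of 10 members kept their place in the order of levels, which follows from the other lengths. MYC high cells at 200 µM rest on 2 libraries, and the fewest reads of a member in a library were 191, for Map1lc3a.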
